A study of Mus musculus with 6 samples.

Results

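The genes described here are Atf4, Ddit3, Asns, Slc7a5, Slc3a2, Phgdh, Psat1, Psph, Shmt2 and Mthfd2, which are 10 of the 13105 genes in the deposited expression table. They were chosen by name, as the transcription factor ATF4, its partner in stress signalling and genes of serine synthesis, mitochondrial folate metabolism and amino acid import, and each of the 10 symbols stood on 1 row. The samples were whole biceps muscles of CD-1 mice. Roots C5 to T1 of the brachial plexus had been removed on one side at postnatal day 5. The biceps of that side and of the other were snap frozen 3 weeks later, on postnatal day 26, so that 3 denervated muscles and 3 contralateral control muscles came from the same 3 mice. The control muscle is thus the uninjured side of an operated mouse, and no muscle of an unoperated mouse is part of these data. The study concerns postnatal muscle growth and the contracture that follows neonatal denervation.

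ATF4 is the effector of the integrated stress response. Kinases that sense a lack of amino acids, unfolded protein in the endoplasmic reticulum or other stress phosphorylate the initiation factor eIF2alpha, which lowers general translation but favours translation of the Atf4 mRNA, so the level of ATF4 protein is set in large part after transcription. The protein pairs with other basic leucine zipper factors and binds the C/EBP-ATF response element of genes for amino acid synthesis, amino acid import and folate metabolism. In skeletal muscle this programme is known from fasting, disuse and mitochondrial disease.

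The values are read as TPM, a transcript abundance normalized for transcript length and library total that can be compared between genes. No counts come with them, and the depth of a single value is unknown, although the labels state at least 35 to 40 M reads for a library. The listed genes held 68.8% to 70.4% of the full TPM total in the control libraries and 77.3% to 80.3% in the denervated ones. On the deposited scale the median log2 fold change, denervated minus control, was 0.71 over the 12268 genes tested. Each difference is therefore also given after median-of-ratios scaling, which brought that median to 0.01, and the words rose and fell are kept for genes that limma called alike on both scales at a Benjamini-Hochberg adjusted p under 0.05. All 6 marker genes of skeletal muscle were measured, with a summed level of 20946 to 24303 TPM in control and 15039 to 19442 TPM in denervated muscle. In whole muscle, fewer cells of a type and less RNA per cell cannot be told apart.

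Of the transcripts that ATF4 is known to drive, several were higher in denervated muscle and others, such as Ddit3, were not. The Atf4 transcript itself was not called higher. Slc7a5, Mthfd2, Asns and Psat1 rose, by 3.81-fold to 6.76-fold in mean TPM on the deposited scale. Their log2 fold changes, taken with a pseudocount of 1, were 1.59 for Asns to 1.84 for Slc7a5 on the deposited scale. After scaling they were smaller, from 0.93 for Psat1 to 1.26 for Slc7a5. Slc3a2, Shmt2 and Phgdh were called higher on the deposited scale alone, where their change lay near that of the median gene. For Phgdh this depended on the pseudocount. With 0.1 in place of 1 its log2 fold change was 1.43 and that of the median gene 0.89. After scaling it was then 0.61 (limma adjusted p = 0.363). Atf4, Ddit3 and Psph kept nearly the same TPM and so stood lower after scaling. By limma, 4 of the 10 genes were higher on both scales and 0 were lower, also 0 at an unadjusted p under 0.05, against 15.7% and 4.5% of all genes tested. On the deposited scale alone 7 of 10 were called higher, where 69.9% of all genes were, and after scaling 3 of 10 were called lower, where 18.6% of all genes were. The median log2 fold change of the 10 was 0.88, or 0.22 after scaling. All 10 passed the filter of at least 1 TPM in 3 libraries, but Asns, Slc7a5, Mthfd2 and Phgdh did not reach 1 TPM in all 3 control libraries and passed with the help of the denervated ones. The count of 4 higher genes is therefore a description.

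**Figure D1:**
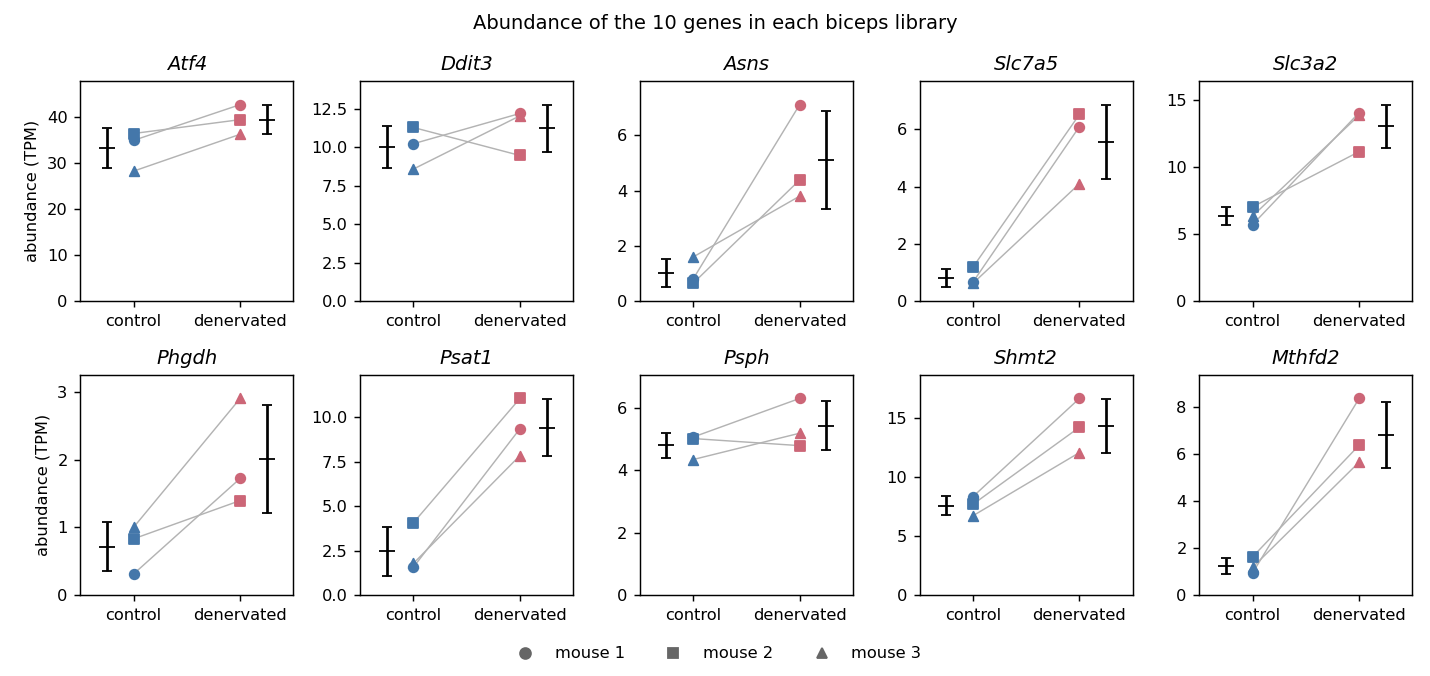
Abundance in TPM of each gene in the 6 libraries, with control muscle in blue and denervated muscle in red, lines joining the muscles of a mouse, and black bars giving the mean ± SD (n = 3). Slc7a5, Mthfd2, Asns, Psat1, Slc3a2, Phgdh and Shmt2 lay higher in every denervated than in every control library. The groups of Atf4, Ddit3 and Psph overlapped. On this deposited scale 69.9% of all genes tested were called higher, and the share of all genes without overlap was not counted.

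Atf4 (ENSMUSG00000042406, chromosome 15: 80255184 to 80257541, plus strand, GRCm38) was the most abundant of the 10 genes in every library. It measured 34.9, 36.4 and 28.2 TPM in the control muscles of mice 1, 2 and 3 and 42.6, 39.4 and 36.2 TPM in their denervated muscles. The groups overlapped, since the denervated muscle of mouse 3 lay below the control muscle of mouse 2, although each denervated muscle lay above its own control. The mean difference on the log2 scale was 0.25 ± 0.15 (SE; limma adjusted p = 0.156). In scaled TPM the denervated libraries held 26.7 to 30.9 and the controls 40.5 to 48.2, without overlap, a log2 fold change of -0.63 ± 0.10 (limma adjusted p = 0.00303). Scaling to equal totals over the listed genes instead gave 0.07 (adjusted p = 0.656). The direction of Atf4 thus differs between scalings. The scaled call was lost without both libraries of mouse 1 (log2 fold change -0.49, adjusted p = 0.0575).

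Ddit3 encodes CHOP, a basic leucine zipper factor that ATF4 induces under prolonged stress (ENSMUSG00000025408, chromosome 10: 127290774 to 127296288, plus strand). It measured 10.2, 11.3 and 8.58 TPM in the control muscles of mice 1 to 3 and 12.2, 9.46 and 12.04 TPM in the denervated ones. The groups overlapped, and mouse 2 went down where mice 1 and 3 went up. Ddit3 had a log2 fold change of 0.15 ± 0.17 (SE; limma adjusted p = 0.426), and -0.67 ± 0.12 after scaling (limma adjusted p = 0.00486), a call lost without both libraries of mouse 1 (-0.57, adjusted p = 0.0772). With equal totals it was -0.01. Its ratio to Atf4, formed within each library as a difference of log2(TPM + 1), was -1.63 ± 0.04 in control and -1.73 ± 0.22 in denervated muscle (SD, n = 3), and it rose in 1 of 3 mice (difference -0.10; exact two-sided permutation p = 0.600). It was 0.01 without denervated replicate 2, so no direction was resolved. Of the 31-mers of Ddit3, 6.78% occur in other gene models of the annotation, one of which carries the same symbol.

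Asns encodes asparagine synthetase, which makes asparagine from aspartate and glutamine (ENSMUSG00000029752, chromosome 6: 7675169 to 7693254, minus strand). It measured 0.805, 0.650 and 1.60 TPM in the control muscles of mice 1 to 3 and 7.11, 4.39 and 3.80 TPM in the denervated ones. Every denervated library lay above every control library, and mouse 3, with the highest control value and the lowest denervated one, moved least. Asns had a log2 fold change of 1.59 ± 0.25 (SE; limma adjusted p = 5.15e-04), or 0.98 ± 0.24 after scaling (limma adjusted p = 0.0179), which exceeded that of 95.1% of the genes tested. Its scaled levels were 0.824 to 2.30 TPM in control and 2.99 to 4.45 TPM in denervated libraries. The scaled call was lost without control replicate 1 (0.92, adjusted p = 0.0572), without denervated replicate 1 (0.85, adjusted p = 0.0599) and without both libraries of mouse 1 (0.80, adjusted p = 0.138) or of mouse 2 (0.85, adjusted p = 0.0777). Asns did not pass the filter without mouse 3. The within-library log2 ratio of Asns to Atf4, again a difference of log2(TPM + 1), was -4.10 ± 0.54 in control and -2.76 ± 0.29 in denervated muscle (SD, n = 3). It rose in 3 of 3 mice, by 1.89, 1.60 and 0.54, and the groups did not overlap. The exact two-sided permutation p of that difference was 0.10, the smallest that 3 against 3 libraries allow (0.200 adjusted over the 6 ratios tested). These tests take the libraries as unpaired. Within mice, the exact sign-flip p was 0.25 for each of the 5 ratios that rose in 3 of 3 mice, the smallest that 3 pairs allow.

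Asns is also the gene among the 10 whose promoter window held the core letters of the C/EBP-ATF response element. The letters TGATGNAA were searched on both strands of RefSeq promoter windows (GRCm38.p6), which run from 250 bases before to 50 bases after each start and were at hand for 9 of the 10 genes, Slc7a5 being the one without. Of those 9 genes 1 held a match (11.1%), against 4.51% of all 27025 genes with a window, and 13 of 80 genes on related pathway lists (16.2%). A window without these letters says nothing of elements elsewhere in the gene. For 3 of the genes the GENCODE gene model, the source of the coordinates given here, starts far upstream of the RefSeq start. The gap is 8304 bases for Mthfd2, 9472 for Slc3a2, and 22278 and 22715 for the 2 windows of Psat1. The matches below, chosen after the values were seen, are shown because genes with the same letters differed in how their transcripts moved. The capitals mark the match, which reads TTNCATCA where it lies on the opposite strand, and each line gives the strand of the gene.
Asns, chr6:7693210-7693247, minus strand: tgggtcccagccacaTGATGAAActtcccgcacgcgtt
Slc1a4, chr11:20332695-20332732, minus strand: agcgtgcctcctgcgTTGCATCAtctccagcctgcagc
Atf3, chr1:191183421-191183458, minus strand: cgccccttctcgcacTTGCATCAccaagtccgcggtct
Chac1, chr2:119351034-119351071, plus strand: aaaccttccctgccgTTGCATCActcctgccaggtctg
Got1, chr19:43524685-43524722, minus strand: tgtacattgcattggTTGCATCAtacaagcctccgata

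The match of Asns began 23 bases before the RefSeq start at position 7693209 (position -23). The GENCODE gene model given above starts 45 bases further upstream, at 7693254, so the match lies inside that model. Beside it, Slc1a4, an exchanger of neutral amino acids, rose (log2 fold change 1.04, scaled 0.55, limma adjusted p = 0.0163 after scaling). Got1, the cytosolic aspartate aminotransferase, fell (-1.43, scaled -2.32). Atf3, a stress-induced factor, had a log2 fold change of 0.98 and a scaled one of 0.25 (limma adjusted p = 0.442 after scaling). Chac1, a glutathione-degrading enzyme of the stress response, had values of -0.18 and -0.95 and was called on neither scale (limma adjusted p = 0.603 and 0.0914). Over the 11 genes of the pathway lists that held a match and were tested, 1 rose, 1 fell and 9 were not called on both scales.

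Slc7a5 and Slc3a2 encode the light and heavy chains of the LAT1 and CD98 heterodimer, which takes up large neutral amino acids such as leucine. The light chain carries the substrate and the heavy chain brings it to the membrane. Slc7a5 (ENSMUSG00000040010, chromosome 8: 121881150 to 121907694, minus strand) measured 0.665, 1.19 and 0.623 TPM in the control muscles of mice 1 to 3 and 6.09, 6.52 and 4.10 TPM in the denervated ones. The groups did not overlap, the highest control library (1.19 TPM) lying below the lowest denervated one (4.10 TPM), also after scaling (1.503 and 3.22 scaled TPM). Its log2 fold change was 1.84 ± 0.21 (SE; limma adjusted p = 1.10e-04), or 1.26 ± 0.18 after scaling (limma adjusted p = 0.00191), above that of 97.0% of the genes tested. Slc7a5 did not pass the filter without both libraries of mouse 2, and it was called in each of the other alternatives.

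Slc3a2 (ENSMUSG00000010095, chromosome 19: 8706882 to 8723369, minus strand) measured 5.70, 7.02 and 6.34 TPM in the control muscles and 14.03, 11.1 and 13.8 TPM in the denervated ones. Each denervated library again lay above each control on the deposited scale, but after scaling the groups overlapped (7.87 to 9.10 and 8.74 to 10.9 scaled TPM). Slc3a2 had a log2 fold change of 0.93 ± 0.16 (SE; limma adjusted p = 8.13e-04), or 0.12 ± 0.12 after scaling (limma adjusted p = 0.492). With equal totals it was 0.77 (adjusted p = 0.00244). In TPM, the light chain stood at 0.117, 0.169 and 0.0982 of the heavy chain in the control muscles of mice 1 to 3 and at 0.434, 0.586 and 0.297 in their denervated muscles. Tested as a difference of log2(TPM + 1), the ratio rose by 0.93, 1.19 and 0.64 in mice 1 to 3. The mean difference was 0.92 (exact two-sided permutation p = 0.10, adjusted 0.200), without overlap between the groups. Adding 1 makes these rises smaller than those of the plain TPM ratio on a log2 scale. A ratio within a library does not move with the scaling, apart from the effect of the pseudocount.

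**Figure D2:**
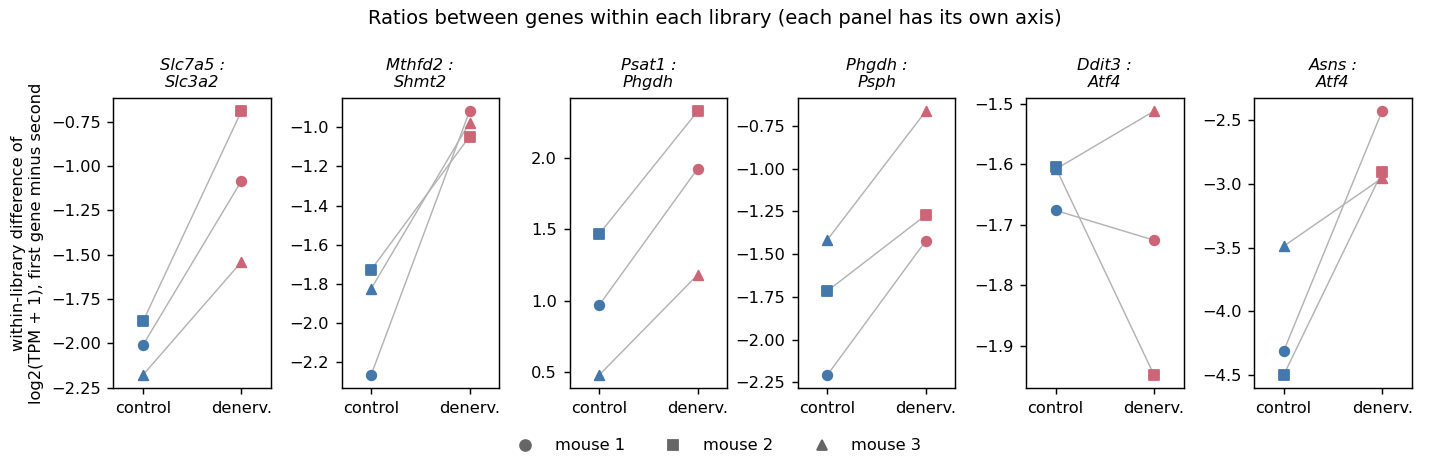
Within-library difference of log2(TPM + 1) between pairs of genes in control (blue) and denervated (red) libraries, with lines joining the muscles of a mouse. The ratios of Slc7a5 to Slc3a2, Mthfd2 to Shmt2 and Asns to Atf4 were higher in every denervated library, whereas that of Ddit3 to Atf4 overlapped.

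The serine pathway turns the glycolytic intermediate 3-phosphoglycerate into serine in consecutive steps by PHGDH, PSAT1 and PSPH. The 3 genes moved by different amounts. Phgdh, for the dehydrogenase that opens the pathway (ENSMUSG00000053398, chromosome 3: 98313170 to 98339990, minus strand), was the least abundant of the 10 genes by mean, at 0.312, 0.831 and 1.00 TPM in the control muscles and 1.72, 1.40 and 2.90 TPM in the denervated ones. The groups did not overlap in TPM but did after scaling. On the deposited scale Phgdh had a log2 fold change of 0.80 ± 0.23 (SE; limma adjusted p = 0.0117), a call lost without denervated replicate 3 (0.60, adjusted p = 0.0537) and without both libraries of mouse 1 (0.68, adjusted p = 0.0815). After scaling it was 0.33 ± 0.26 (limma adjusted p = 0.367), and with equal totals 0.71 (adjusted p = 0.0259). The scaled value moved with single libraries, to 0.12 without control replicate 1, 0.13 without denervated replicate 3 and 0.52 without control replicate 3, and it was 0.51 without mouse 2. The level of Phgdh is uncertain, because 56.3% of its 31-mers occur in other genes, 44.8% of all in the gene model Gm7901 alone.

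Psat1, for the aminotransferase of the middle step (ENSMUSG00000024640, chromosome 19: 15904678 to 15947337, minus strand), measured 1.57, 4.07 and 1.78 TPM in the control muscles of mice 1 to 3 and 9.36, 11.1 and 7.85 TPM in the denervated ones. Mouse 2 was highest in both muscles, and the groups did not overlap. Psat1 had a log2 fold change of 1.64 ± 0.26 (SE; limma adjusted p = 5.67e-04), or 0.93 ± 0.27 after scaling (limma adjusted p = 0.0332). In scaled TPM the gap between the groups was narrow, from 5.15 in the highest control to 5.86 in the lowest denervated library. The scaled call of Psat1 was lost without control replicate 1 (0.75, adjusted p = 0.0929) or 3 (0.83, adjusted p = 0.10), without denervated replicate 1 (1.03, adjusted p = 0.0534), 2 (0.79, adjusted p = 0.0916) or 3 (1.01, adjusted p = 0.0585), and without both libraries of mouse 1 (0.86, adjusted p = 0.118) or 3 (0.92, adjusted p = 0.142). With the mouse as a block its adjusted p was 0.00427.

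Psph, for the phosphatase that releases serine (ENSMUSG00000029446, chromosome 5: 129765558 to 129787449, minus strand), measured 5.05, 5.01 and 4.34 TPM in control and 6.29, 4.78 and 5.18 TPM in denervated muscle. The groups overlapped, and mouse 2 went down. Psph had a log2 fold change of 0.14 ± 0.16 (SE; limma adjusted p = 0.434), or -0.61 ± 0.10 after scaling (limma adjusted p = 0.00321), where the denervated libraries (3.76 to 4.07 scaled TPM) lay below the controls (6.22 to 6.98). That call was lost without both libraries of mouse 1 (-0.53, adjusted p = 0.0570), and with equal totals the value was -0.01 (adjusted p = 0.965). Of the 31-mers of Psph, 9.79% occur in other genes, mostly in Cct6a. The summed TPM of the 3 serine genes was 6.93, 9.90 and 7.12 in control and 17.4, 17.2 and 15.9 in denervated muscle. Psat1 gave the larger part of that difference. As a difference of log2(TPM + 1), the ratio of Psat1 to Phgdh rose by 0.96, 0.86 and 0.71 in mice 1 to 3. The groups overlapped, since mouse 2 stood high and mouse 3 low in both muscles (exact two-sided permutation p = 0.200, adjusted 0.240). In plain TPM that ratio was 5.02, 4.90 and 1.78 in the control muscles and 5.44, 7.93 and 2.71 in the denervated ones. Mouse 1 thus moved least in plain TPM. The log2(TPM + 1) difference of Phgdh to Psph likewise rose in 3 of 3 mice (mean difference 0.66, exact two-sided permutation p = 0.200).

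SHMT2 splits serine into glycine and a folate-bound carbon unit in the mitochondrion, and MTHFD2 oxidizes that unit for export as formate. Mthfd2, which adult tissues are known to express at a low level and growing cells at a higher one (ENSMUSG00000005667, chromosome 6: 83305691 to 83325908, minus strand), measured 0.946, 1.63 and 1.18 TPM in the control muscles and 8.37, 6.38 and 5.66 TPM in the denervated ones. The groups did not overlap, and in scaled TPM they lay at 1.31 to 2.06 and at 4.45 to 5.23. Mthfd2 had a log2 fold change of 1.79 ± 0.19 (SE; limma adjusted p = 9.11e-05), or 1.14 ± 0.14 after scaling (limma adjusted p = 8.47e-04). It was called on both scales under each alternative run.

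Shmt2 (ENSMUSG00000025403, chromosome 10: 127517123 to 127522444, minus strand) measured 8.35, 7.70 and 6.73 TPM in the control muscles of mice 1 to 3 and 16.7, 14.3 and 12.1 TPM in the denervated ones. The groups did not overlap in TPM but did after scaling. Its log2 fold change was 0.83 ± 0.17 (SE; limma adjusted p = 0.00177) and 0.01 ± 0.11 after scaling (limma adjusted p = 0.956), so Shmt2 moved by about as much as the median gene. Its scaled sign turned without control replicate 2 or 3, denervated replicate 2 or mouse 2 (lowest value -0.04), and with equal totals the value was 0.67 (adjusted p = 0.00552). The TPM of Mthfd2 came to 0.113, 0.211 and 0.176 of that of Shmt2 in the control muscles and to 0.501, 0.448 and 0.468 in the denervated ones. As a difference of log2(TPM + 1) the ratio rose by 1.35, 0.68 and 0.85 in mice 1 to 3. These rises are smaller than those of the plain TPM ratio on a log2 scale. The log2 difference varied less among denervated than among control libraries (SD 0.06 and 0.29, n = 3), and the difference in spread was not tested. The exact two-sided permutation p was 0.10 (adjusted 0.200).

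**Figure D3:**
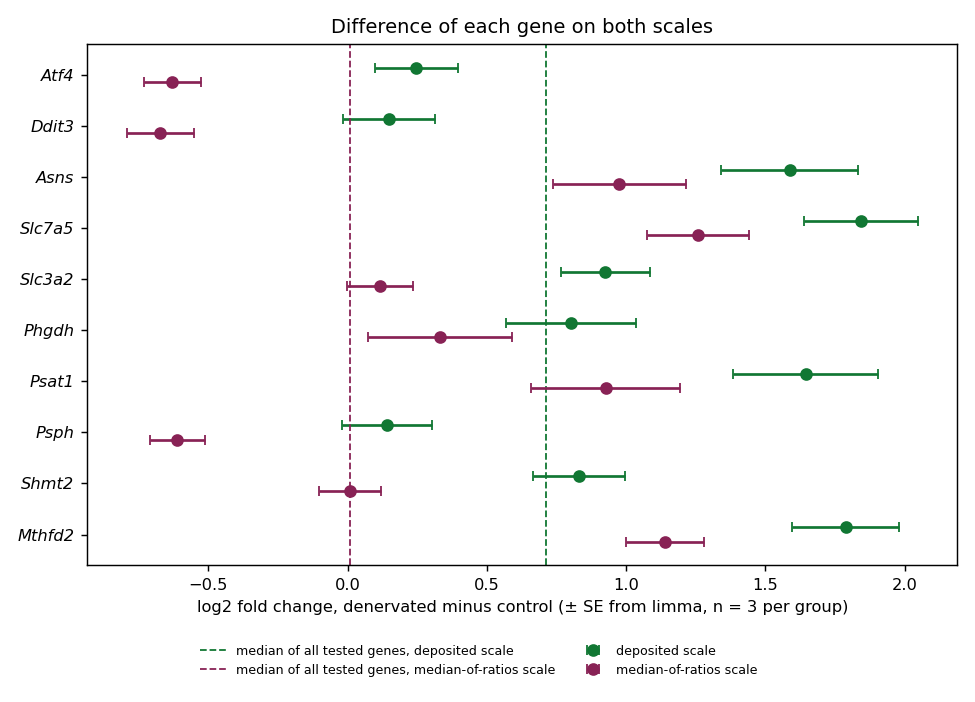
Log2 fold change of each gene, denervated minus control, on the deposited scale (green) and after median-of-ratios scaling (purple), with the standard error from limma (n = 3 per group) and the median of all tested genes as dashed lines. Slc7a5, Mthfd2, Asns and Psat1 lay right of both medians, Slc3a2, Phgdh and Shmt2 close to them, and Atf4, Ddit3 and Psph left of them, with signs that differ between the scales.

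The order of the levels changed with denervation. In control muscle Atf4 stood first by mean TPM, followed by Ddit3, Shmt2, Slc3a2, Psph, Psat1, Mthfd2, Asns, Slc7a5 and Phgdh. The libraries of Shmt2 and Slc3a2 overlapped there, as did those of each neighbouring pair from Psat1 down to Phgdh. In denervated muscle the order was Atf4, Shmt2, Slc3a2, Ddit3, Psat1, Mthfd2, Slc7a5, Psph, Asns and Phgdh, and every neighbouring pair from Shmt2 down to Asns overlapped. Together the 10 genes held 60.4 to 75.7 TPM in control and 104 to 124 TPM in denervated libraries.

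The genes whose scaled values ran most like those of Atf4 over the 6 libraries, by the Euclidean distance of centred log2 values among 6388 other genes averaging 5 TPM or more, were Agpat1 (distance 0.08), Pet100 (0.08), Zfp970 (0.12), Apopt1 (0.12) and Tmem147 (0.12). Of the 10 genes, Psph came nearest to Atf4 at rank 46 (0.23), followed by Ddit3 at rank 168 (0.31). Asns, Slc7a5, Mthfd2 and Phgdh average less than 5 TPM and are not among the genes compared. By their distances of 2.16, 2.35, 2.21 and 1.49 they would take ranks 5996, 6065, 6018 and 5327. Predicted genes and pseudogenes were left out of the comparison.

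Among 18 measured amino acid transporters other than the LAT1 pair, 5 rose and 0 fell on both scales, with a median scaled log2 fold change of 0.32. Over all genes tested, 15.7% were higher and 4.5% lower on both scales, which is the background for each list that follows. Slc1a5, the glutamine transporter ASCT2, went from 4.75 ± 1.44 to 24.9 ± 4.22 TPM (SD, n = 3; scaled log2 fold change 1.38, limma adjusted p = 0.00192). Slc43a2, a carrier of large neutral amino acids, went from 3.63 ± 0.522 to 19.7 ± 4.63 TPM (scaled 1.36). Slc38a1, a sodium-coupled glutamine transporter, went from 0.361 ± 0.0453 to 3.37 ± 1.82 TPM (scaled 1.16). It reached 1 TPM in 0 of 3 control libraries and could not be tested without any one denervated library or mouse. The remaining rises were those of Slc1a4 and of Slc38a9, a lysosomal arginine sensor (scaled 0.40), the latter named after its values were seen. Slc1a4 likewise reached 1 TPM in 0 and Slc38a9 in 2 of 3 control libraries, so these members passed the filter through the denervated group, and the count of 5 is a description. The most abundant transporter, Slc38a2, went from 25.5 ± 5.96 to 59.3 ± 3.06 TPM. Its scaled value was 0.33 (limma adjusted p = 0.106), and blocking on the mouse gave an adjusted p of 0.0387. It was called after scaling without control replicate 2 (0.45, adjusted p = 0.0244) or mouse 2 (0.46, adjusted p = 0.0474), with quantile normalization (0.48, adjusted p = 0.0372) and with equal totals (1.04, adjusted p = 9.13e-04).

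Of 11 other measured enzymes of amino acid synthesis, 0 rose and 3 fell by limma, and the median scaled log2 fold change was -0.80. At an unadjusted p under 0.05 on both scales the counts were again 0 and 3. Got1, also the most abundant, went from 218 ± 24.5 to 80.5 ± 8.66 TPM (SD, n = 3). The mitochondrial aspartate aminotransferase Got2 (scaled -1.37) and ornithine aminotransferase Oat (scaled -1.28) also fell. The deposited-scale call of Oat was lost without control replicate 1 or 3 or denervated replicate 2 or 3 (values -0.33 to -0.39, largest adjusted p = 0.144), and those of Got2 and Oat without mouse 2 or 3 (largest adjusted p = 0.290). Among 13 tested genes of the folate cycle and its partners, 0 rose and 1 fell by limma, with a median of 0.08, and 1 was higher at an unadjusted p under 0.05. The one that fell was Dld, the dihydrolipoamide dehydrogenase shared by the glycine cleavage system and the mitochondrial dehydrogenases (141.6 ± 6.79 to 96.8 ± 11.2 TPM; scaled -1.44), whose deposited-scale call was lost without mouse 2 (-0.44, adjusted p = 0.0688).

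Upstream of ATF4, of 13 measured eIF2alpha kinases, eIF2 and eIF2B subunits and regulators, 1 rose and 0 fell, with a median scaled log2 fold change of -0.06. The exception was Impact, an inhibitor of the amino acid sensing kinase GCN2, which went from 3.05 ± 0.265 to 10.6 ± 1.00 TPM (SD, n = 3; scaled 0.76, limma adjusted p = 8.65e-04). The most abundant, Eif2s2, had a scaled value of -0.23 (limma adjusted p = 0.10), and 0.48 with equal totals. Of 13 other stress factors and feedback genes, 2 rose and 0 fell (median -0.05), a share of rises near the 15.7% of all genes tested. Those were Atf6 and Xbp1, factors of other branches of the unfolded protein response (scaled 0.55 and 0.43), which lost their calls without mouse 1 (largest adjusted p = 0.0705), and Xbp1 also without mouse 3 (0.45, adjusted p = 0.0720). Vldlr, the most abundant of that list, was at 0.42 on the deposited scale, at -0.46 after scaling and at 0.25 with equal totals (log2 fold changes).

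Chaperones and quality control genes of the endoplasmic reticulum showed 5 rises and 0 falls among 16, with a median scaled log2 fold change of 0.34. Sel1l, Pdia6 and Pdia4 had the largest scaled changes (0.65, 0.59 and 0.57). Sel1l was no longer called after scaling when control replicate 1 (0.69), denervated replicate 1 (0.63) or denervated replicate 3 (0.64) was left out (largest adjusted p = 0.0863), nor without mouse 1 or 3 (largest adjusted p = 0.140), that of Pdia4 without denervated replicate 1 (0.59) or 2 (0.54; largest adjusted p = 0.0610) and mouse 1 or 3 (largest adjusted p = 0.0998), and that of Pdia6 without mouse 1 (0.49, adjusted p = 0.0503). Hsp90b1, the most abundant, went from 93.0 ± 18.7 to 206 ± 31.8 TPM (scaled 0.25, limma adjusted p = 0.132) and was called after scaling without control replicate 2 (0.35, adjusted p = 0.0254) or mouse 2 (0.36, adjusted p = 0.0455), with quantile normalization (0.56, adjusted p = 0.00897) and with equal totals (0.97, adjusted p = 0.00145).

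**Figure D4:**
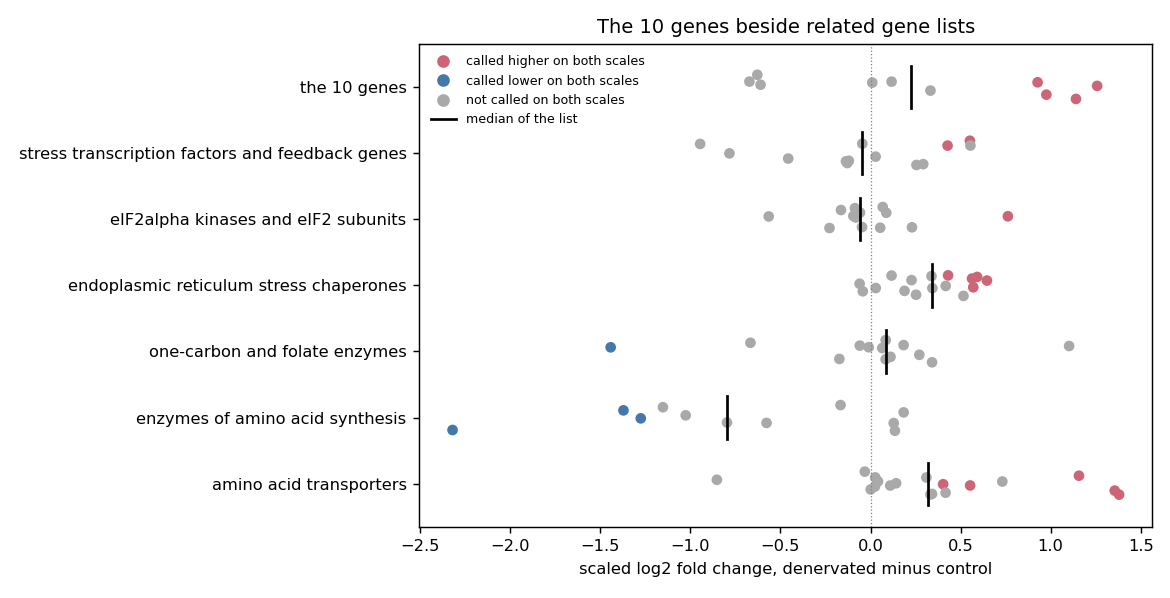
Scaled log2 fold change, denervated minus control, of the 10 genes and of 6 related gene lists, each point a gene and each black line the median of its list. Genes called higher on both scales are red and those called lower are blue, with the reds farthest to the right among the 10 genes and the amino acid transporters. The blues lie among the enzymes of amino acid synthesis, apart from Dld among the one-carbon and folate enzymes.

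Marker lists of other cell types moved beside these genes. The summed level of 5 macrophage markers was 7.10 to 24.3 TPM in control and 30.7 to 40.2 TPM in denervated muscle, that of 5 adipocyte markers 12.1 to 37.5 and 89.0 to 168 TPM, and that of 5 fibroblast markers 416 to 1038 and 761 to 1495 TPM. The sum of 5 satellite cell markers was 22.98 to 39.4 TPM in control and 39.1 to 50.6 TPM in denervated muscle, that of 5 endothelial markers 59.8 to 82.0 and 55.03 to 74.8 TPM, and that of 4 measured Schwann cell markers 69.9 to 157 and 41.2 to 59.8 TPM. No marker was at 0 in every library. By limma 0 of the 5 macrophage and 0 of the 5 fibroblast markers were higher on both scales (1 and 0 at an unadjusted p under 0.05), as were 3 of 5 adipocyte and 2 of 5 satellite cell markers. Of these the satellite cell genes Pax7 and Myf5 reached 1 TPM in 0 and 1 control libraries and the adipocyte gene Plin1 in 1. Another 1 of the 5 satellite cell markers was called lower after scaling. Lower on both scales were 4 of the 6 skeletal muscle markers, with a median scaled log2 fold change of -1.53, and 2 of the 3 Schwann cell markers tested. The other 2 skeletal muscle markers were called higher on the deposited scale. All 5 endothelial markers were called lower after scaling, but 0 on both scales by limma, also at an unadjusted p under 0.05. The part of these cell types in the levels of the 10 genes was not tested.

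In the authors' deposited table, 6 of the 10 genes had an adjusted p under 0.05, from 0.00204 for Mthfd2 to 0.0102 for Psat1, while Phgdh had 0.0593, Atf4 0.204, Psph 0.470 and Ddit3 0.572. None of the 10 is on the authors' deposited sheets of 336 higher and 21 lower genes, whose log2 fold changes in the authors' deposited table begin at 2.00 and -2.06.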

How the data were processed

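The labels' protocols describe Ovation amplification of total RNA, Nextera XT library making and 75-base sequencing from both ends. The submitters' processing notes name kallisto 0.42.1 and build mm10. The summing of transcripts to genes is not described there. The authors deposited log2 values per library and gene, per the file headers, with no named unit. They were read as log2(TPM + 1), since the lowest value is 0 and the summed linear values of each library are below the TPM total. The deposited p-values, whose test the headers do not name, and the log2 fold of the authors are quoted only where their table is named. The authors' signed fold score was not used. RNA was amplified before library making and no molecular identifiers are recorded, so relative levels carry amplification error.

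The members and lists were chosen with earlier results of these data known. Genes with at least 1 TPM in at least 3 of 6 libraries were tested with limma 3.58.1 (R 4.3.3; trended empirical Bayes; pseudocount 1; Benjamini-Hochberg over 12268 genes), on the deposited values and after dividing TPM by median-of-ratios factors of 0.697 to 0.789 in control and 1.27 to 1.60 in denervated libraries. A fold change on this scale understates that of low genes. Ratios, formed as differences of log2(TPM + 1), were tested by exact permutation (scipy 1.17.1). Named are all 10 genes and, from each pathway list, up to 3 genes called on both scales with the largest scaled change and the most abundant one. Of the deposited gene IDs, 12862 of 13105 were found in GENCODE M21 (GRCm38, which mm10 denotes), the source of coordinates and 31-mers. Alternatives were the mouse as a block, no filter, pseudocounts of 0.1 and 5, leaving out each library or mouse, quantile normalization and equal totals. Both muscles of a mouse share its number in the labels. Deviations from the group mean correlated between the 2 muscles of a mouse at 0.312, 0.183 and 0.411 over genes. Muscles of different mice were not compared in this way, so these values do not test the pairing.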

Additional observations from a re-analysis of the deposited data

How the results depend on the processing

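Of the 10 genes, 4 were called higher on both scales. The count ranged from 2 to 4 when a library or a mouse was left out, the lower value coming without control replicate 1, denervated replicate 1 or any of the 3 mice. Leaving out a library or mouse gave scaled log2 fold changes of -0.71 to -0.49 for Atf4, -0.80 to -0.54 for Ddit3, -0.65 to -0.53 for Psph, -0.036 to 0.12 for Shmt2, 0.80 to 1.25 for Asns and 0.75 to 1.23 for Psat1, a deposited one of 0.60 to 1.01 for Phgdh and a change in the Ddit3 to Atf4 ratio of -0.21 to 0.011. It left 841 to 1833 genes called higher and 1220 to 2254 called lower after scaling. Asns and Phgdh could not be tested without mouse 3, nor Slc7a5 without mouse 2, since they missed the filter.

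Equal totals over the listed genes, in place of median-of-ratios scaling, left the median gene at 0.57. It gave 7338 genes higher and 718 lower, 7 of the 10 genes called higher, and values of 0.074 for Atf4, -0.014 for Ddit3, 0.77 for Slc3a2, 0.71 for Phgdh, -0.0077 for Psph and 0.67 for Shmt2. It reversed Vldlr (0.25), Eif2s2 (0.48), Agpat1 (0.042), Pet100 (0.075), Zfp970 (0.072), Apopt1 (0.11) and Tmem147 (0.0037). With the mouse as a replicate block 4 of the 10 genes were called, the call of each of the 10 was as without it, and among the other named genes that of Slc38a2 alone changed (0.33, adjusted p = 0.0387). Quantile normalization changed the call of none of the 10 genes and, among the other named genes, those of Slc38a2 (0.48), Hsp90b1 (0.56) and Vldlr (-0.32, adjusted p = 0.0732). The cause of these changes was not tested. Depth is unknown, so counting error of genes near 1 TPM could not be given.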
